A study of Mus musculus with 176 samples.

Results

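*Runx1*, *Runx2* and *Runx3*, which encode the DNA-binding subunits of the core binding factor, and *Cbfb*, which encodes their shared partner subunit, were followed in single antigen-experienced CD4 T cells. These are 4 of the 53546 gene names in the count table, and each is listed there once. The genes were chosen as a family, and because *Runx3* had been seen at high levels in clonally expanded cells of these same data, so the levels by tetramer binding and by *Trbv13-2* reads are a description and carry no test. Female C57BL/6J mice, an inbred strain with no engineered allele, were immunized intramuscularly at 7 weeks of age with the peptide P6 of apolipoprotein B in complete Freund's adjuvant. They received the peptide again after 2 weeks in incomplete Freund's adjuvant, and inguinal and para-aortic lymph nodes were taken 2 weeks later. Cells sorted as TCRβ+CD4+CD44hi and CD62L- were divided by an MHC-II tetramer loaded with P6 into 32 binding cells (P6+), all from 1 mouse, and cells that did not bind it (P6-). No unimmunized animal was analysed here. By the methods P6- cells were sorted from the rest of the same sample volume, and cells are not replicates of a mouse, so each group counts as 1 sample and no p-value is given.

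RUNX proteins bind DNA through their Runt domain, and CBFβ, which does not touch the DNA itself, stabilizes that binding. RUNX1 is needed for blood stem cells and T cell development and forms a complex with FOXP3 in regulatory T cells (Tregs). RUNX3 is best known in CD8 T cells and TH1 cells, where it takes part in silencing *Cd4* and *Il4* and in inducing *Ifng*, and in tissue-resident T cells with the integrin CD103. RUNX2 is the master regulator of bone formation and is also made by some T cells.

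In the GRCm38 annotation, *Runx1* lies on the minus strand of chromosome 16 from 92601466 to 92826149, *Runx2* on the minus strand of chromosome 17 from 44495987 to 44814797, *Runx3* on the plus strand of chromosome 4 from 135120652 to 135177990, and *Cbfb* on the plus strand of chromosome 8 from 105170674 to 105217989. Vertebrate Runx genes are transcribed from a distal and a proximal promoter. RefSeq (GRCm38.p6) gave 2 start sites each for *Runx1* and *Runx3* and 1 each for *Runx2* and *Cbfb*, with windows that run from 250 bases before to 50 bases after each start. The distal windows of all 3 Runx genes hold the same run of 18 bases, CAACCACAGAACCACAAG, which contains ACCACA, a core of the sequence that RUNX proteins bind, at 2 places. The stretches are shown because the 3 Runx genes share this run, and are written 5′ to 3′ along each gene's own strand with the shared run in capitals. They lie at chr16:92826025-92826108 (minus strand), chr17:44814578-44814666 (minus strand) and chr4:135120449-135120550 (plus strand).
Runx1: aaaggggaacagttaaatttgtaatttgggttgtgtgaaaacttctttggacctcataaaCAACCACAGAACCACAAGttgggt
Runx2: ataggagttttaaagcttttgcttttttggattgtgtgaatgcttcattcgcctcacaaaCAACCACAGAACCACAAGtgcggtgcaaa
Runx3: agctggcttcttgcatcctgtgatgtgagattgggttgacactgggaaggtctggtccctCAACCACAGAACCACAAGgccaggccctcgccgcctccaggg

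The shared run was searched for on both strands in 32851 RefSeq promoter windows and was present in 4 of them, a share of 0.0122%. The remaining window belongs to *Gm16225*, whose start lies opposite that of *Runx3* (chromosome 4, 135120327 to 135120626, minus strand), so that the run found there is the *Runx3* run itself. It begins 26 bases after the start of *Runx1*, 21 bases after that of *Runx2* and upstream of that of *Runx3*. Over the 60 bases before the run, compared position by position without gaps, *Runx1* and *Runx2* are identical at 27 bases, *Runx1* and *Runx3* at 21, and *Runx2* and *Runx3* at 17. The proximal windows of *Runx1* and *Runx3* and the window of *Cbfb* hold neither the run nor ACCACA or its reverse complement TGTGGT, which are present in 16.8% of all windows. A match of letters is not a measured binding site. The reads were counted per gene, so they do not show which of its promoters a cell used.

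Smart-Seq2 amplifies full-length cDNA of each cell without molecular identifiers, and the authors deposited whole-number counts of reads per gene for every sorted cell. The limits of 500000 reads, 2000 genes and under 10% mitochondrial reads left 161 cells, the 32 P6+ cells and the passing P6- cells, and removed 15 P6- cells. Passing P6+ cells held 956280 to 3332191 reads (median 1731608) and a median of 4396 genes, and passing P6- cells held 522188 to 3401372 reads (median 1500457) and a median of 3432 genes. After thinning to 500000 reads the medians were 2731 and 2213 genes. Cell names carry 8 number prefixes. Every P6+ cell has the prefix 6, which only 11 of the passing P6- cells share, so that tetramer binding and prefix cannot be told apart outside those 11 cells. By the lane number in the read names, P6+ cells and P6- cells of prefixes 6 to 9 are of lane 2. P6- cells of prefixes 2 to 5 are of lane 1, so P6+ and P6- cells differ in lane as well, and its part was not tested. *Trac*, a T cell receptor constant region, was held at 10 or more reads by all 32 P6+ cells and by 82.9% of the passing P6- cells, at close pooled levels (824 and 851 reads per 1000000). Of the 5 CD4 T cell markers every P6+ cell held at least 1, and 6 passing P6- cells held none. The part of this in the lower shares of P6- cells was not tested. In P6+ cells, *Cd8a* and *Cd8b1* of CD8 T cells and *Csf1r* of myeloid cells were at 0 reads. Of the 4 NK cell markers, *Ncr1* and *Klrb1c* were at 0 in P6+ cells, *Eomes* had 1 read, and *Gzma* was held by 2 P6+ cells (125.6 cpm) and no P6- cell (0.0687 cpm).

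Most cells held no read or 1 to 9 reads of a Runx gene and a few held far more, so a cell is said to hold a gene at 10 or more reads. Pooled levels are reads summed over the cells of a group per 1000000 summed reads (cpm), and ratios are log2 values with 1 cpm added to both levels. Intervals are at 95%, exact binomial for shares of cells and exact Poisson for pooled levels. The binomial intervals reflect only the number of cells counted. The Poisson intervals reflect only the number of reads, which are PCR copies and not separate molecules, and leave out the spread between cells. *Cd4* shows how many cells a gene can escape in such libraries, because every cell was sorted for the CD4 protein. It was held by 16 of the 32 P6+ cells and by 39 passing P6- cells (30.2%). A cell without 10 reads of a Runx gene may therefore still have transcribed it.

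Reads of *Runx3* were unequally spread over the cells. Among P6+ cells, 7 held the gene (21.9%, interval 9.28 to 40%), with 20, 38, 68, 326, 933, 2021 and 2636 reads, and the next highest cell had 3 reads. Of the passing P6- cells, 12 held it (9.30%, 4.90 to 15.7%), with a lowest count of 13, a median of 147 and a highest of 2586 reads. The intervals of the shares overlapped, and the counts of the holding cells covered the same range in both groups.

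The pooled level of *Runx3* was 102.2 cpm in P6+ cells (interval 99.6 to 104.8) and 36.3 cpm in P6- cells (35.5 to 37.2), a log2 ratio of 1.47. It was the 1 gene of the 4 past a 2-fold difference, but without the highest cell of each group, or against P6- cells of the same prefix, *Runx2* and *Cbfb* were past it as well. At a minimum of 10 cpm in the higher group, 24.3% of 8728 genes were 2-fold higher in P6+ cells and 29.9% were 2-fold lower, so a ratio of this size was common. The cell with most reads contributed 43.5% of the P6+ and 34.9% of the P6- reads, and without both cells the ratio was 1.29. Without the highest P6+ cell alone the P6+ level was 59.8 cpm and the ratio 0.70, under 2-fold. Over the prefixes, the P6- level ran from 0 to 80.7 cpm in lane 1 and from 2.37 to 123.6 cpm in lane 2. All P6+ cells are of lane 2. Whether *Runx3* stays past 2-fold against all P6- cells of that lane was not tested. Against the 11 P6- cells of the same prefix, of which 2 held *Runx3* with 13 and 200 reads, the ratio was 2.77. In that comparison the median ratio of all genes was 1.04, and 50.3% of 7761 genes were 2-fold higher in P6+ cells. None of those 11 cells held *Trbv13-2*, against 16 of the P6+ cells, so the comparison also differs in *Trbv13-2*.

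**Figure D1:**
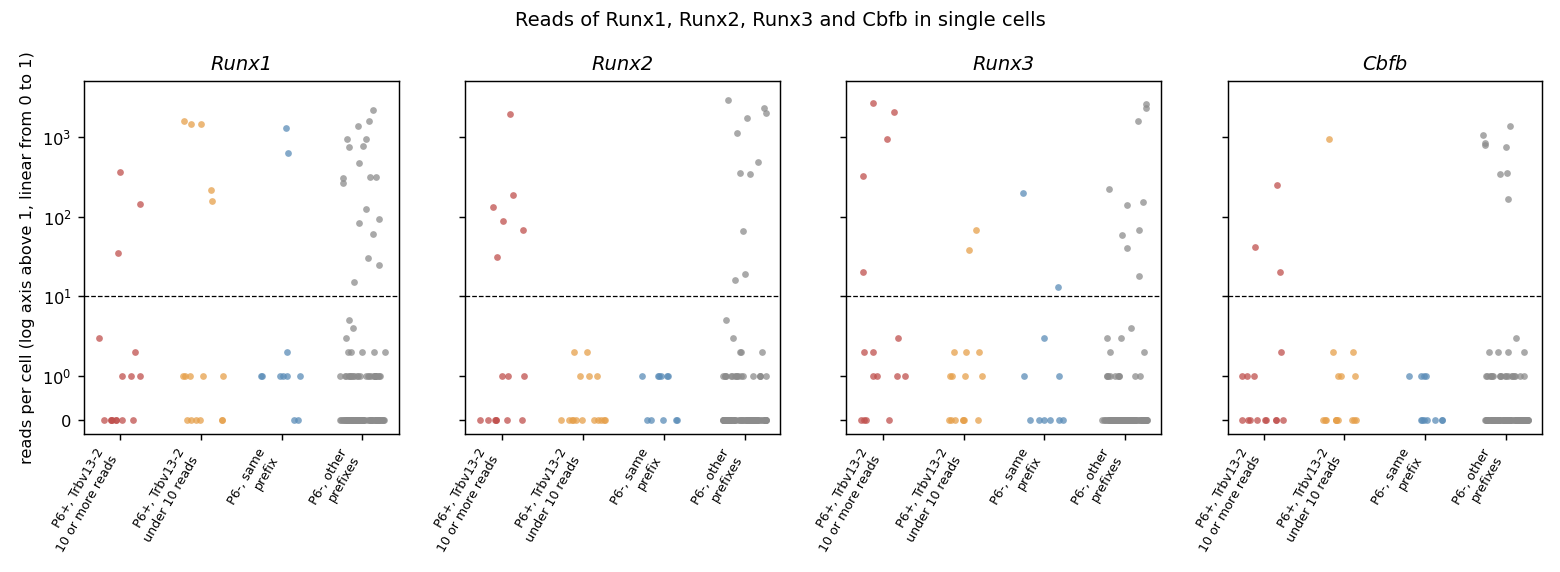
Reads of *Runx1*, *Runx2*, *Runx3* and *Cbfb* (vertical axis, logarithmic above 1 read and linear below) in each passing cell, 1 point per cell, for P6+ cells with 10 or more *Trbv13-2* reads (16 cells), P6+ cells with fewer (16), P6- cells of the same name prefix (11) and other P6- cells. The dashed line marks 10 reads. Points lie either at 5 reads or fewer or at 13 reads or more, and the 6 P6+ cells above the line for *Runx2* are all in the first group.

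*Trbv13-2*, a β chain V segment carried by the largest P6+ clone, divided these cells evenly. It had 48 to 780 reads in 16 cells, the lowest of them at 48 and 92, and at most 1 read in the other 16. Cells of other clones can use the same segment, and a cell of the clone can lack its reads, so this is a split by reads and not by clone. *Runx3* was held by 5 of the 16 cells with *Trbv13-2* (31.2%, 11 to 58.7%), at 20, 326, 933, 2021 and 2636 reads. In the 16 cells without it, 2 held *Runx3* (12.5%, 1.55 to 38.3%), at 38 and 68 reads. The 4 highest P6+ cells were thus all cells with *Trbv13-2*, although the intervals of the shares overlapped and 11 of the cells with the segment held no *Runx3*.

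The pooled levels of *Runx3* were 197 cpm with *Trbv13-2* (192 to 202) and 3.98 cpm without (3.29 to 4.77), a log2 ratio of 5.31. The ratio was 2.40 at a limit of 100 *Trbv13-2* reads and 3.89 with 10 cpm added to both levels. In this split 34.9% of 7660 genes were 2-fold higher in the cells with the segment and 33.4% were 2-fold lower. The median P6+ cell held about 1 read in both groups, at 0.728 cpm with *Trbv13-2* and 0.486 cpm without. The difference of the pooled levels lay in the few cells with most reads.

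The choice of *Runx3* did not use the *Trbv13-2* reads of the P6- cells. There were 26 P6- cells with 10 or more *Trbv13-2* reads, and 4 of them held *Runx3* (15.4%, 4.36 to 34.9%), at 59, 1589, 2293 and 2586 reads. Among the P6- cells with fewer *Trbv13-2* reads, 8 held *Runx3* (7.77%, 3.41 to 14.7%), with a highest count of 222 reads. The 3 P6- cells with most *Runx3* reads were all cells with *Trbv13-2*. The highest of them, which gave 39.6% of the *Runx3* reads of the 26 cells and also held *Runx2*, was 1 of the 2 P6- cells that held *Cd8b1* of CD8 T cells, and it had 1 read of *Cd4*. The pooled levels were 150 cpm (146 to 153) and 5.50 cpm (5.14 to 5.87), a log2 ratio of 4.53, where 23.1% of 8328 genes were 2-fold higher and the median ratio of all genes was -0.31. Without the 2 P6- cells that held *Cd8b1* the level with *Trbv13-2* was 94.1 cpm and the ratio 3.86, and the ratio of P6+ to P6- cells was 2.04 instead of 1.47. The shares of cells had overlapping intervals here as well. The 4 P6- cells that held both genes carried the prefixes 2, 5 and 8. P6- cells of the P6+ prefix held no *Trbv13-2* at 10 reads, and had at most 200 *Runx3* reads.

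*Runx2* had no holder among the P6+ cells without *Trbv13-2*. The gene was held by 6 of the 16 P6+ cells with *Trbv13-2* (37.5%, 15.2 to 64.6%), at 31 to 1929 reads or 29.7, 32.4, 57.4, 75.3, 155 and 850.1 cpm of the single cell, and by 0 of the 16 without (0 to 20.6%), where no cell exceeded 2 reads. All 6 holding P6+ cells therefore carried the segment, and the intervals of the shares overlapped. Of 3847 genes held by 5 or more P6+ cells, 2.31% were held only by cells with *Trbv13-2* in the same way, and 0.39% only by cells without.

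The pooled level of *Runx2* was 80.5 cpm with *Trbv13-2* (77.4 to 83.8) and 0.240 cpm without (0.0966 to 0.495), a log2 ratio of 6.04. One cell contributed 79.1% of all P6+ reads of *Runx2*, and without the highest cell of each group the ratio was 4.0. It was 3.14 with 10 cpm added to both levels and 3.11 at a limit of 100 *Trbv13-2* reads. At that limit 11.1% of the P6+ cells below it held *Runx2*. Over all P6+ cells the level was 41.1 cpm (6 of 32 cells, 18.8%), against 55.4 cpm in P6- cells (11 cells, 8.53%), a log2 ratio of -0.42. That ratio was -2.10 without the highest cell of each group and 4.92 against P6- cells of the same prefix, so it gives no direction. Holding P6- cells had 16 to 2878 reads, so the share of cells and the pooled level ranked the groups in opposite order. None of the 11 P6- cells of the same prefix held *Runx2* (0 to 28.5%), and their highest count was 1 read. They held no *Trbv13-2* either. In P6- cells the pooled level was 131.6 cpm with *Trbv13-2* (4 of 26 cells, at 16, 1105, 1738 and 2878 reads) and 34.6 cpm without (7 cells, 6.80%), a log2 ratio of 1.90. One cell gave 50.1% of the reads with the segment, and without it the level there was 68.4 cpm and the ratio 0.96, under 2-fold.

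*Runx1* showed the opposite order of pooled levels. It was held by 3 P6+ cells with *Trbv13-2* (18.8%, 4.05 to 45.6%), at 35 to 360 reads or 25.4, 86.8 and 308 cpm of the single cell. In P6+ cells without the segment 5 held it (31.2%, 11 to 58.7%), at 158, 213, 1441, 1458 and 1572 reads. The 3 highest cells all lacked *Trbv13-2*, and the ranges overlapped between 158 and 360 reads. Pooled levels were 18.1 cpm (16.6 to 19.7) with and 166 cpm (162 to 171) without the segment, a log2 ratio of -3.13. The cell with 1572 reads had 1 read of *Trbv13-2*, and a limit of 1 read, which moved it and 1 further cell across, brought the ratio to -0.93. Between P6+ and P6- cells *Runx1* differed less than 2-fold, at 90.9 cpm (8 of 32 cells, 25%) and 61.5 cpm (21 cells, 16.3%), a log2 ratio of 0.56. The 11 P6- cells of the same prefix reached 125.4 cpm from 2 holding cells with 631 and 1298 reads. In P6- cells *Runx1* stood at 33.1 cpm with *Trbv13-2* and 69.2 cpm without (4 and 17 cells, 15.4% and 16.5%), a log2 ratio of -1.04, where 37.3% of genes were 2-fold lower.

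*Cbfb*, the partner that all 3 RUNX proteins need for stable binding, was held by fewer P6+ cells and fewer P6- cells than any Runx gene at the limit of 10 reads. At 1 read or more it was seen in 27.1% of P6- cells, above the 23.3% for *Runx3*, and among P6+ cells without *Trbv13-2* 1 cell held *Cbfb* and none held *Runx2*. It was held by 4 of 32 P6+ cells (12.5%, 3.51 to 29%), at 20, 41 and 245 reads in cells with *Trbv13-2* and at 948 reads in 1 cell without. P6- cells held it in 8 cases (6.20%, 2.72 to 11.9%), at 167 to 1348 reads. The pooled levels were 21.3 and 27.6 cpm, a log2 ratio of -0.36. Within P6+ cells they were 10.3 cpm with and 32.8 cpm without the segment, a log2 ratio of -1.58, but 1 cell gave 99.3% of the reads without it. Leaving out the highest cell of each group turned that ratio to 1.39. No direction can be read for *Cbfb*. Cells without *Cbfb* reads cannot be taken to lack the protein.

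**Figure D2:**
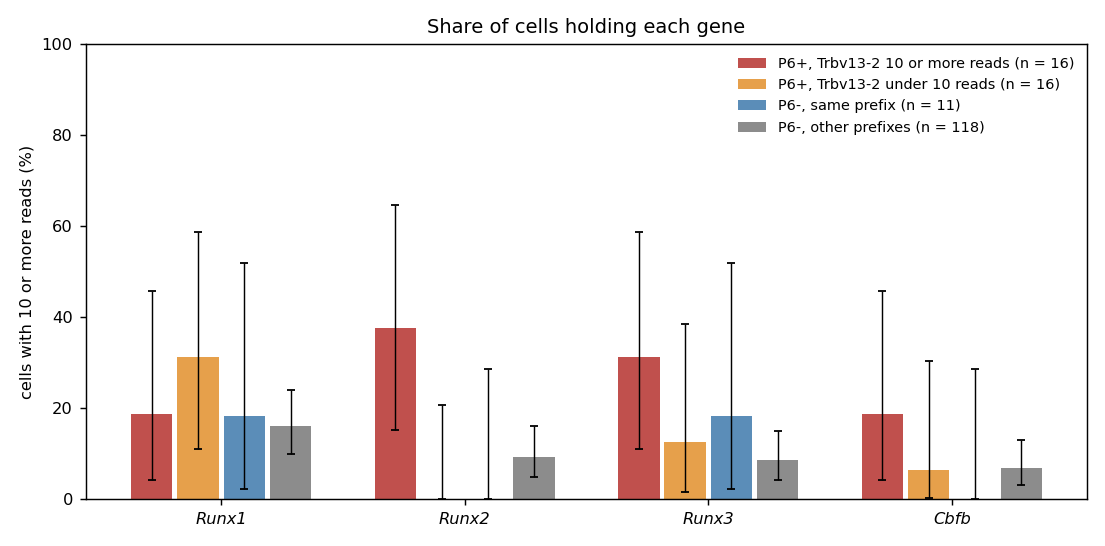
Share of cells with 10 or more reads (vertical axis, percent) of each gene in 4 groups of passing cells, with bars for the share and lines for its exact binomial 95% interval. The largest gap is that of *Runx2*, at 37.5% of P6+ cells with *Trbv13-2* and 0% of P6+ cells without, and within each gene the intervals of these groups overlap.

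Levels of different genes were compared per kilobase of merged exons (12 kb for *Runx1*, 8.84 kb for *Runx2*, 5.0 kb for *Runx3* and 3.48 kb for *Cbfb*). In P6+ cells with *Trbv13-2* the order of pooled levels per kilobase was *Runx3* at 39.4, *Runx2* at 9.11, *Cbfb* at 2.96 and *Runx1* at 1.5 cpm per kb. In P6+ cells without the segment it was *Runx1* at 13.8, *Cbfb* at 9.42, *Runx3* at 0.796 and *Runx2* at 0.0272 cpm per kb. The P6- cells as a whole had a narrow range, from 5.11 cpm per kb for *Runx1* to 7.94 for *Cbfb*. Split by *Trbv13-2*, the P6- cells had wider ranges. With the segment they ran from 2.75 for *Runx1* to 29.9 for *Runx3*, and without it from 1.10 for *Runx3* to 7.29 for *Cbfb*. Given the few cells behind each value, neighbours in these orders were not told apart.

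At least 1 Runx gene was held by 17 of 32 P6+ cells (53.1%, 34.7 to 70.9%) and by 37 P6- cells (28.7%, 21.1 to 37.3%). Among the 11 P6- cells of the same prefix 4 did (36.4%, 10.9 to 69.2%). P6+ cells also had reads of more genes in general, with medians of 4396 and 3432. The share for other sets of genes was not computed, so the difference is not read as one of the family. Of the P6+ cells, 4 held 2 Runx genes, and all 4 were cells with *Trbv13-2*. *Runx2* and *Runx3* occurred together in 3 of those cells. *Runx1* and *Runx3* shared no P6+ cell, with 8 and 7 holding cells, but 6.6% of 3846 genes held by 5 or more P6+ cells shared no cell with *Runx3* either. In P6- cells, 2 of the 12 cells with *Runx3* also held *Runx1*. *Cbfb* was held together with a Runx gene in 3 of its 4 P6+ cells and in 2 of its 8 P6- cells.

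**Figure D3:**
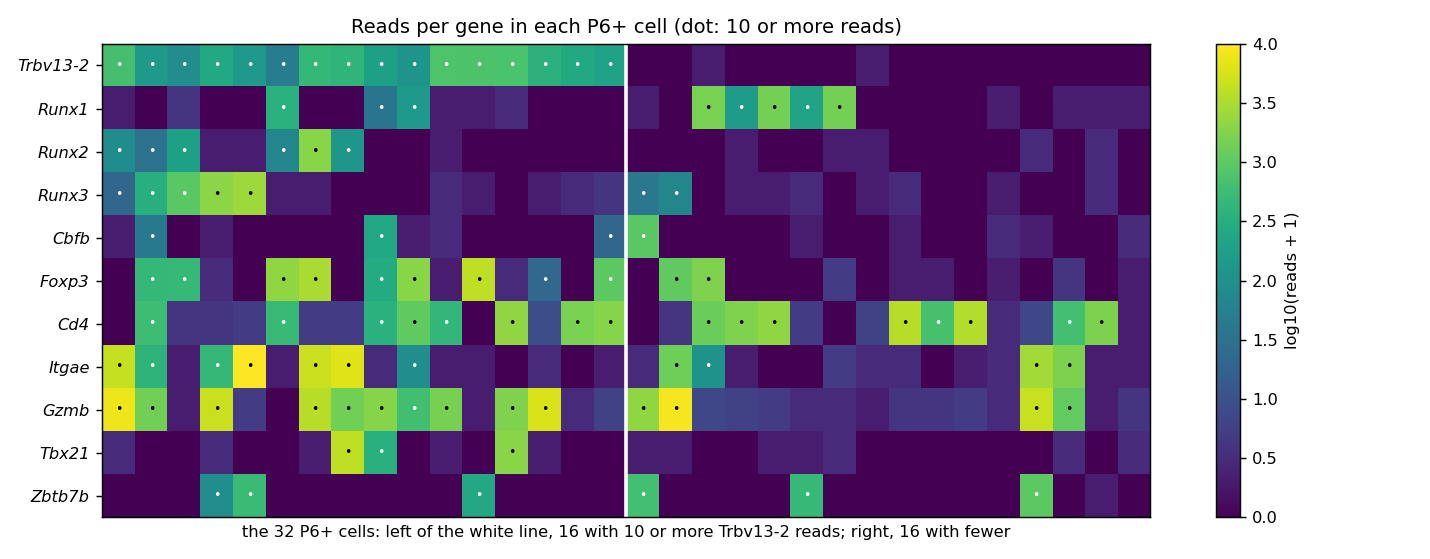
Reads of *Trbv13-2*, the 4 family genes and 6 further genes in each of the 32 P6+ cells (columns), coloured by log10(reads + 1), with a dot at 10 or more reads and a white line between the 16 cells with and the 16 without *Trbv13-2*. *Runx1* and *Runx3* dots fall in no common column, and 5 of the 7 *Runx3* dots and all 6 *Runx2* dots are left of the line.

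Other genes differed across the same split of the P6+ cells. Of the 4 Treg markers, *Foxp3* was held by 9 cells with *Trbv13-2* and 2 without, and *Il2ra* by 10 and 2. *Ikzf2* was held by 13 and 8 cells and *Ctla4* by 14 and 11, both less than 2-fold apart (log2 ratios 0.93 and 0.61). The summed level of the Treg markers (*Foxp3*, *Il2ra*, *Ikzf2* and *Ctla4*) ranged from 541 to 4615 cpm over cells with the segment and from 2.22 to 3434 cpm over cells without. *Ighm*, an immunoglobulin heavy chain gene in the list of B cell markers, was held by 12 and 2 cells, at pooled levels of 1870 and 96.2 cpm. The summed B cell markers ranged from 1.14 to 7238 cpm and from 0 to 1275 cpm, all of it *Ighm*. The defining B cell genes *Cd79a* and *Ms4a1* were at 0 reads in all P6+ cells. Median depth was 1700549 reads with the segment and 1820936 without, and thinned cells had medians of 2889.5 and 2667 genes. The part of these differences in the levels of the Runx genes was not tested.

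Partners of the family were listed as 14 genes. They comprise the Groucho family genes *Tle1* to *Tle5*, among them corepressors that RUNX proteins recruit, and the coactivators *Ep300* and *Crebbp*. The others are *Ets1*, which binds DNA together with RUNX1, the TGF-β signal transducer *Smad3*, and the T cell fate regulators *Tbx21*, *Eomes*, *Gata3*, *Foxp3* and *Zbtb7b*. Between P6+ and P6- cells 12 of the 14 reached 10 cpm in 1 group, 3 were 2-fold higher in P6+ cells and 2 were 2-fold lower, with a median log2 ratio of 0.83. Of all genes tested 24.3% were higher and 29.9% lower, with a median of -0.05. Against P6- cells of the same prefix the medians stood in the opposite order, at 0.79 for the partners (6 higher and 3 lower of 12) and 1.04 for all genes (50.3% higher and 24% lower), so no shift of the list can be read. There *Ep300* was at 42.1 against 99.7 cpm, a log2 ratio of -1.22, and at 0.86 against all P6- cells. *Zbtb7b*, the regulator of CD4 lineage choice that opposes RUNX3 in thymocytes, reached 50.2 cpm in 6 of 32 P6+ cells and 2.02 cpm, held by 1 cell, in P6- cells, a log2 ratio of 4.09. *Crebbp* reached 134.6 against 49.3 cpm and *Tle3* 127.1 against 42.8 cpm. *Tle4* (9 P6- cells, 40.3 cpm) was at 0 reads in P6+ cells, and *Smad3* was held by 7 P6- cells and no P6+ cell. *Ets1* was held by 29 of 32 P6+ cells and 100 P6- cells (77.5%) at nearly the same level (1041 and 1038 cpm).

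Between P6+ cells with and without *Trbv13-2*, 10 partners reached 10 cpm in 1 group, with 5 past 2-fold higher, 2 past 2-fold lower and a median log2 ratio of 0.74. Of all genes tested 34.9% were higher and 33.4% lower in this split, with a median of 0.01. *Foxp3* reached 451 and 95.5 cpm, a log2 ratio of 2.23. *Tbx21*, the TH1 regulator, reached 210 cpm from 3 cells with the segment and 0.343 cpm in cells without. *Ep300* reached 78.7 and 4.15 cpm (3 and 2 cells), and *Tle5* 165 and 71.7 cpm (11 and 6 cells). *Tle1* reached 109.6 cpm with the segment, from a single cell. *Crebbp* (40.5 and 232 cpm) and *Zbtb7b* (29.1 and 72.2 cpm) were past 2-fold lower, although held by 6 and 7 and by 3 and 3 cells. The same split of the P6- cells had 1 partner past 2-fold higher and 3 past 2-fold lower of 11, with a median of 0.10 (all genes, 23.1%, 37.3% and -0.31). *Crebbp* was there the gene past 2-fold higher (92.1 and 37.7 cpm), the reverse of its order in P6+ cells, and *Foxp3* was at 159.8 and 179 cpm, a log2 ratio of -0.16.

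Genes known as RUNX targets were listed as 17 genes, 2 of which are also in the list of partners. Between P6+ and P6- cells 12 reached 10 cpm in 1 group, 3 were 2-fold higher and 4 were 2-fold lower (all genes, 24.3% and 29.9%), with a median log2 ratio of 0.59 (all genes, -0.05). Against P6- cells of the same prefix 9 reached it, 6 were higher and 1 lower, with a median of 1.57 (all genes, 50.3%, 24% and 1.04). *Itgae*, which encodes the α chain of the integrin CD103, reached 547 cpm in 11 of 32 P6+ cells and 119.5 cpm in 10 P6- cells (7.75%), a log2 ratio of 2.19. *Gzmb*, the protease granzyme B, reached 802 cpm (14 cells) and 133.97 cpm (8 cells), a log2 ratio of 2.57. *Il7r*, the receptor for interleukin 7, was lower in P6+ cells, at 134.6 against 391 cpm, and was held by 13 P6+ cells (40.6%) and 34 P6- cells (26.4%). *Cd4* itself stood at 401 and 393 cpm. The TH1 cytokine gene *Ifng* was held by 0 P6+ and 4 P6- cells, *Il4* by 0 and 1, and *Cd8b1* by 0 and 2.

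In the split by *Trbv13-2*, 9 targets reached 10 cpm in 1 group, 4 were past 2-fold higher and 1 past 2-fold lower (all genes, 34.9% and 33.4%), with a median log2 ratio of 0.83 (all genes, 0.01). *Itgae* reached 883 and 199 cpm (7 and 4 cells), *Il2ra* 319 and 68.8 cpm (10 and 2 cells) and *Il7r* 214 and 52 cpm (11 and 2 cells). *Gzmb* was less than 2-fold apart, at 1023 and 573 cpm (10 and 4 cells). In the same split of the P6- cells 3 of 12 targets were past 2-fold higher and 3 past 2-fold lower, with a median of -0.13 (all genes, 23.1%, 37.3% and -0.31). The pooled level of *Itgae* stood there in the opposite order, at 73.5 cpm with and 131.99 cpm without the segment, a log2 ratio of -0.84. It was held by 3 and 7 cells, which is the larger share in the smaller group with the segment. The highest cell without the segment had 8858 reads, and its part in the order of the pooled levels was not tested. *Il2ra* (log2 ratio 0.21) and *Gzmb* (-0.17) were less than 2-fold apart, and *Il7r* was again higher with the segment (1.69).

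What else the cells with *Runx3* held was counted within each group. Of the 7 P6+ cells with *Runx3*, 1 held *Cd4* (14.3%), compared with 15 of the other 25 (60%). In P6- cells the numbers were 4 of 12 (33.3%) and 35 of the others (29.9%), where the shares were close, and the difference between the groups was not tested. *Itgae* was held by 5 of the 7 P6+ cells with *Runx3* and 6 of the other 25, and in P6- cells by 2 of 12 (16.7%) and 8 of the others (6.84%). *Gzmb* was held by 5 of 7 and 9 of 25, *Gata3* by 6 of 7 and 13 of 25, and *Zbtb7b* by 3 of 7 and 3 of 25. In P6+ cells *Tbx21* was held by 0 of the 7 and 3 of the other 25, too few cells to read the lack of overlap. *Foxp3* was held by 3 of the 7 and 8 of the other 25. None of the differences for *Runx3* over all P6+ cells reached 50 percentage points, a size that 1.59% of 3846 genes passed upward and 0.078% downward. The counts were repeated among the 16 cells with *Trbv13-2*, of which 5 held *Runx3*. There *Itgae* was held by 4 of the 5 and 3 of the other 11, a difference of 52.7 points. Among genes held by 5 or more of these 16 cells, 3.08% of 2303 passed 50 points upward. There *Gzmb* was held by 3 and 7, a difference of -3.6 points. *Gata3* was held by 4 and 7, *Cd4* by 1 and 7, *Zbtb7b* by 2 and 1, and *Foxp3* by 2 and 7 of these cells.

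**Figure D4:**
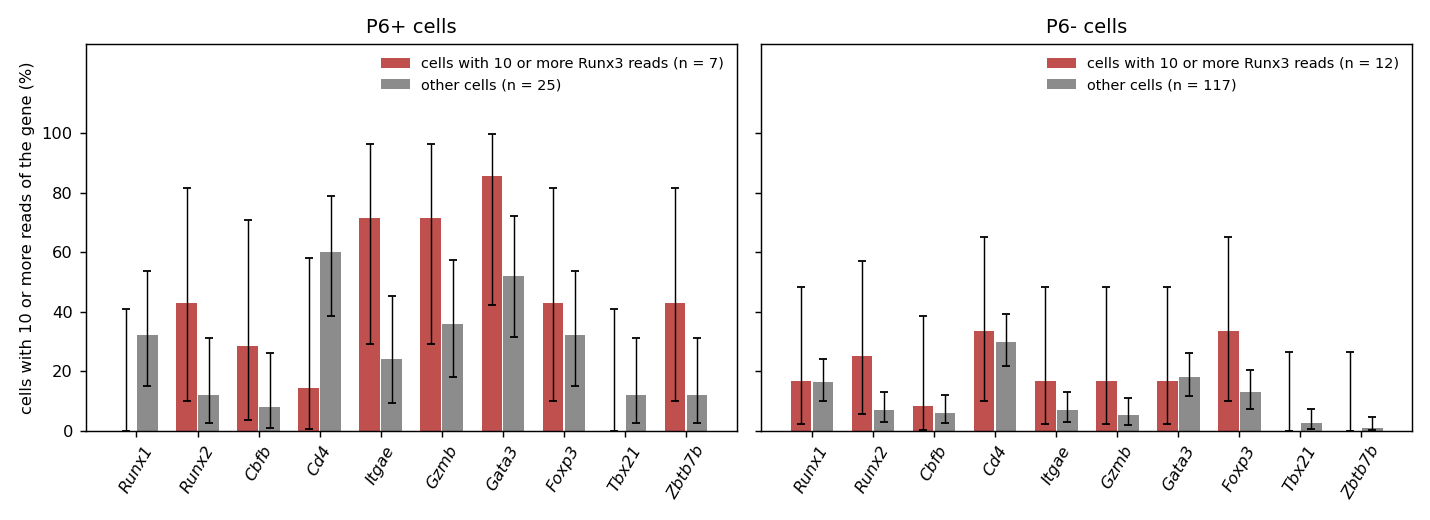
Share of cells (vertical axis, percent) with 10 or more reads of each of 10 genes, among cells with 10 or more *Runx3* reads (red, 7 P6+ and 12 P6- cells) and all other cells of the group (grey), with exact binomial 95% intervals. *Cd4* is at 14.3% and 60% in P6+ cells and at 33.3% and 29.9% in P6- cells, and the intervals of red and grey bars overlap for every gene shown.

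The same counts were made for *Runx2*. Of the 6 P6+ cells with *Runx2*, 5 held *Ccl5*, a chemokine gene, compared with 5 of the other 26, a difference of 64.1 percentage points. *Il2ra* was held by 5 of 6 and 7 of 26, and *Il7r* by 5 of 6 and 8 of 26. An upward difference of 50 points was passed by 2.73% of genes for *Runx2*. Since all 6 cells carried *Trbv13-2*, the counts were repeated among the 16 cells with the segment. *Ccl5* was then held by 5 of 6 and 2 of 10 cells, a difference above 50 points, which 2.95% of 2303 genes passed, whereas *Il2ra* was held by 5 of 6 and 5 of 10 and *Il7r* by 5 of 6 and 6 of 10. In P6- cells *Ccl5* was held by 1 of the 11 cells with *Runx2* (9.09%) and 5 of the others (4.24%), *Il2ra* by 3 and 16, and *Il7r* by 6 and 28. All 4 P6+ cells with *Cbfb* held *Il2ra* (8 of the other 28), but 12.8% of genes passed 50 points for *Cbfb*. *Cd4* was held by 6 of the 8 P6+ cells with *Runx1* and 10 of the other 24, and in P6- cells the order was the reverse, at 2 of 21 (9.52%) and 37 of the others (34.3%).

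The genes most like each member across the 32 P6+ cells were taken by Spearman's rho of log2(cpm + 1) after thinning each cell to 500000 reads. For *Runx3* they were *Gbp6* (rho 0.64), *Zfp36l1* (0.62), *Kat7* (0.62), *Ss18* (0.56) and *Nup98* (0.55), out of 2237 candidates. Over the passing P6- cells the same pairs had rho values of 0.09, 0.13, 0.05, 0.20 and -0.07. For *Runx1* the nearest were *Gm14044* (0.62 in P6+ and 0.05 in P6- cells), *Chmp2b* (0.57 and 0.09) and *Akr1a1* (0.54 and 0.03). For *Runx2* they were *Rer1* (0.56 and -0.04), *Rce1* (0.55 and 0.04) and *Cox6a1* (0.54 and 0.07). For *Cbfb* they were *Prkaca* (0.70 and -0.08), *Cox5b* (0.62 and 0.05) and *Sptlc2* (0.60 and -0.11). Between the 4 family genes themselves rho lay between -0.09 and 0.19 in P6+ cells. Many cells share the value 0 in these pairs, and the values closest to 1 were selected from all candidates, so the likeness in P6+ cells is a description only.

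Counts of 1 to 9 reads were set apart. For all 4 genes the share of cells with them was lowest in the pool of P6- cells of other prefixes and higher in both groups of prefix 6. *Runx1* had 1 to 9 reads in 7 of the 11 P6- cells and 10 of the 32 P6+ cells of prefix 6, and in 33 other P6- cells (28%), among them 9 of the 20 cells of prefix 8 and 1 of the 12 of prefix 7. *Runx2* had them in 6 of 11, 8 of 32 and 22 other cells (18.6%), and *Runx3* in 3 of 11, 14 of 32 and 15 other cells (12.7%). *Cbfb* had them in 4 of 11, 9 of 32 and 23 other cells (19.5%). Single prefixes departed from this order, as prefix 8 did for *Runx1*. In the 20 P6- cells of prefix 4, *Runx3* was at 0 reads, where 3 counts would allow 0.108 cpm. Holding cells of *Runx3* occurred under 7 of the 8 prefixes, with at most 3 holding P6- cells in each.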

How the data were processed

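Single cells were sequenced by Smart-Seq2 with 23 cycles of preamplification and Nextera libraries, which do not mark strand. Per the processing notes of the submitters, FastQC 0.11.7, STAR 2.6.0a and SAMtools 0.1.19 were used with GRCm38, and the authors deposited raw counts of reads per gene, neither normalized nor filtered. All 32 P6+ cells and 129 of 144 P6- cells passed the quality limits, and 103 of those 129 had fewer than 10 *Trbv13-2* reads. As the study did, rows of a repeated gene name (81 names) were averaged. The tetramer sign matched the label of every cell, and no pair of cells had identical counts. Depth of passing cells ran from 522188 to 3401372 reads. A count of 3 reads corresponds to 0.0506 cpm over all P6+ cells and 0.0147 cpm over passing P6- cells.

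The mapping rate, a further filter of the study, was not used here, and with it the study kept fewer P6- cells, so every P6- share and level here includes cells that the study removed. Counts were summed per group. With 1 sample per group no test was made. TMM factors (edgeR 4.0.16) and size factors (DESeq2 1.42.0, R 4.3.3) were applied to pooled sums as alternatives only. Python 3.11.15, numpy 2.4.6, pandas 2.3.3, scipy 1.17.1 and matplotlib 3.10.9 were used for the remainder. Positions and exon lengths came from GENCODE annotation of GRCm38, promoters from RefSeq, where *Tle5* of the table was matched to *Aes*. Some genes of the lists are not reported here. The members and lists were chosen with earlier results of these data known. Text names the members, listed partners and targets, markers, and the 5 genes (*Runx3*) or 3 genes (others) of highest rho among genes held by at least 8 P6+ cells. A difference of 50 percentage points or of 2-fold served as background for counts.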

Additional observations from a re-analysis of the deposited data

How the results depend on the processing

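Each value rests on few cells, and why alternatives moved it was not tested. No paired analysis was possible because each group is 1 sample and cells share no replicate number. A gene that a cell did not transcribe and a transcript that the library missed cannot be told apart. Of the recomputed values, 93 moved by less than the counting interval of the value (or, for counts of genes, by less than 1.5 times), 58 moved further and 1 ratio past 2-fold reversed. Among the 58, 3 ratios under 2-fold changed sign, those of *Runx1*, *Runx2* and *Cbfb* against P6- cells of the same prefix. TMM and DESeq2 factors, names summed instead of averaged, no minimum level and the limit of 50 reads moved none past this.

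For P6+ against P6- cells the log2 ratios of *Runx1*, *Runx2*, *Runx3* and *Cbfb* were 0.81, -0.58, 1.54 and -0.16 with the mean of single-cell cpm. Without the highest cell of each group they were 0.34, -2.10, 1.29 and -1.77. Against P6- cells of the same prefix they were -0.46, 4.92, 2.77 and 4.15. Thinning gave 0.78, -0.53 and -0.076 for *Runx1*, *Runx2* and *Cbfb*. With no quality limit the ratios were 0.63, 1.54 and -2.09 for *Runx1*, *Runx3* and *Cbfb*, the last with the failing cell of 14601 reads. A pseudocount of 10 cpm gave 1.28 for *Runx3*. Without the 2 P6- cells that held a CD8 gene, chosen after seeing the data, they were -0.21 for *Runx2* and 2.04 for *Runx3*, and in the *Trbv13-2* split of P6- cells 1.43 and 3.86. That split without the highest cell of each group, also added, gave -1.75, 1.69, 4.21 and 0.016.

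For the split of P6+ cells by *Trbv13-2*, a pseudocount of 10 cpm gave -2.65, 3.14, 3.89 and -1.08. The mean of single-cell cpm gave -2.95 for *Runx1* and -1.28 for *Cbfb*, and thinning -2.89 for *Runx1*. Without the highest cell of each group the ratios were -3.99 for *Runx1*, 4.0 for *Runx2* and, reversed, 1.39 for *Cbfb*. A limit of 1 *Trbv13-2* read gave -0.93 for *Runx1* and -1.82 for *Cbfb*. A limit of 100 reads gave -4.46, 3.11 and 2.40 for *Runx1*, *Runx2* and *Runx3*. *Runx2* and *Runx3* remained higher with the segment under every alternative run on P6+ cells, and *Runx1* lower.

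With 1 read or more counted, the shares of P6+ cells were 56.2, 43.8, 65.6 and 40.6% for *Runx1*, *Runx2*, *Runx3* and *Cbfb*, and of P6- cells 47.3, 30.2, 23.3 and 27.1%. In P6- cells of the same prefix they were 81.8, 54.5, 45.5 and 36.4%, above those of P6+ cells for *Runx1* and *Runx2*. With *Trbv13-2* they were 50% for *Runx1* and 75% for *Runx3*, and without it 62.5, 31.2, 56.2 and 37.5%. Among P6- cells of the same prefix 10 or more reads were found in 0% for *Runx2*, 18.2% for *Runx3* and 0% for *Cbfb*.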

Other observations

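The 15 P6- cells that failed the quality limits held no *Runx1*, *Runx2* or *Runx3* at 10 or more reads, with at most 4 reads in any cell. One of them had 14601 reads of *Cbfb*, more than 10 times the highest count in a passing cell (1348 reads).

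Antisense and related rows were also read. *Runx2os1*, on the opposite strand of *Runx2* (chromosome 17, 44735845 to 44737612), had 0 reads in P6+ cells and 1.71 cpm in P6- cells, with 10 or more reads in 1 cell. *Runx2os2* was held by no cell, and *Runx2os3* and *Runx1t1*, a repressor gene outside the Runx family, had 0 reads in both groups. Libraries without strand cannot divide reads between *Runx2* and an antisense gene that overlaps its exons.

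The core ACCACA was present in 1 of 15 promoter windows of 12 matched partner genes (6.67%) and in 5 of 16 windows of 12 matched target genes (31.2%), where 16.8% of all windows held it.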
